A study of Mus musculus with 4 samples.

Results

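Imprinted genes are transcribed mainly or only from the allele that came from 1 parent. The set described here holds 47 autosomal genes, taken by symbol from the 55291 features of the deposited mouse count table. In the tissues where each is known to be imprinted, 27 are expressed from the paternal allele and 20 from the maternal allele. The imprint is laid down in the egg or the sperm, mostly as DNA methylation at a control region shared by a cluster of genes. In the egg, H3K27 trimethylation of histone H3 does the same at a few loci such as Gab1, Sfmbt2, Slc38a4, Jade1 and Smoc1. After fertilisation most DNA methylation is lost, and factors such as ZFP57 with its partner TRIM28 keep it at imprints.

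RNA was sequenced from mouse zygotes, which are 1-cell embryos, in 4 samples with 1 in each group. An H3.3 MO injected sample had its own control, and so had an H3.3 S31A injected sample. H3.3 is the histone H3 variant placed on chromatin outside DNA replication. MO commonly stands for morpholino, an antisense oligonucleotide, which the labels do not spell out, and S31A is how a serine changed to alanine is usually written. What the controls received, the mouse strain, the age of the zygotes and the number pooled are not given in the sources used here. A mouse line with tagged H3.3B is named in the series, and whether these zygotes carried it was not given.

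Each sample had 2 count columns, called libraries 1 and 2, and the 2 libraries are not replicate samples. Totals ran from 5661621 to 13233371 counts per library. In zygotes most RNA was stored in the egg. The counts are per gene and tell neither the alleles nor the transcripts of a gene apart. They thus measure the amount of RNA and not imprinting. Fewer zygotes and less RNA per zygote also cannot be told apart. H3f3b, an H3.3 gene, was at 2.30 and 10.5 CPM (counts divided by the TMM-scaled library size) in MO injected zygotes, against 2199 and 1550 CPM in MO control zygotes. H3f3a, the other H3.3 gene, was at 8.04 and 52.4 CPM in MO injected and at 462 and 586 CPM in MO control zygotes. In the S31A experiment H3f3b was at 2438 and 2749 CPM in injected and at 1453 and 1819 CPM in control zygotes. H3f3a was there at 484 and 648 CPM in injected and at 657 and 563 CPM in control zygotes. All 15 egg and zygote markers were detected in every library, while 9 of 15 cumulus and granulosa cell markers, Amh, Fshr and Foxl2 among them, were at 0 in all 8. The others had counts, and 1 or 2 of the 15 reached 10 CPM in each library. The summed cumulus and granulosa level was 99.7 and 68.8 CPM in MO injected, 57.6 and 72.8 CPM in MO control, 191 and 66.5 CPM in S31A injected and 58.7 and 90.2 CPM in S31A control libraries. Of 8 sperm markers, 6 were at 0 in all libraries. Of 8 blood and stroma markers, 1 reached 10 CPM in each library, and their summed level was 15.3 to 54.7 CPM. Of 8 markers of trophectoderm and the later embryo, 2 or 3 did, with a summed level of 37 to 165 CPM.

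The 3 promoter stretches show the kind of sequence at these loci, taken from RefSeq on GRCm38.p6 and printed in lower case. Capitals mark TGCCGC on either strand, so GCGGCA as well, the hexamer that ZFP57 binds when its CG is methylated. Mest is shown as the member with the highest level per length, Peg3 and Usp29 because they start on opposite strands beside each other, and Gab1 because its libraries differed most between the groups. The Mest stretch is chr6:30737800-30738049 on the plus strand, the stretch between the starts of Peg3 and Usp29 is chr7:6730432-6730577 on the plus strand, and the Gab1 stretch is chr8:80880520-80880719 on the minus strand.
Mest: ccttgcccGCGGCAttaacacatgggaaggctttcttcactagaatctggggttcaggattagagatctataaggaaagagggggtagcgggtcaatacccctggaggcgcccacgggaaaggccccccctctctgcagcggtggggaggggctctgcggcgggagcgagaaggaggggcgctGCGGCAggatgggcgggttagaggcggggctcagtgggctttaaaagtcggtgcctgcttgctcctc
Peg3 to Usp29: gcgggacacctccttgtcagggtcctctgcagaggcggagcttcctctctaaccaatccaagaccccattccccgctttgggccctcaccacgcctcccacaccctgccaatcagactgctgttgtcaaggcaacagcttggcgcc
Gab1: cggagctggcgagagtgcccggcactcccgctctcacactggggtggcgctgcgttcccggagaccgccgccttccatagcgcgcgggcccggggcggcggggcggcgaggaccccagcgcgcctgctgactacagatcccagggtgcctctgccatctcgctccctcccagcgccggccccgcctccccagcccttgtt
The Mest stretch comes from the Mest window with most matches, so holding matches follows from that choice. It lies away from the deposited Mest start at 30723547, while the Peg3 to Usp29 and Gab1 stretches lie at deposited starts. The stretches were thus not chosen alike. The Mest stretch held 2 matches and 14 CG pairs. The Gab1 stretch held 23 CG pairs in its 200 bases with no match, and the 146 bases between Peg3 and Usp29 held 5 CG pairs with no match. Promoter windows from 250 bases before to 50 bases after the start were matched for 39 of the 47 members. A match lay in at least 1 window of 12 of these 39 (30.8%), 8 of 22 paternally and 4 of 17 maternally expressed members, against 13.1% of all 27025 genes with a window. Counted by window, 20.6% of the 63 member windows and 11.6% of all 32851 windows held a match. Member windows had a median of 14 CG pairs and all windows 7, and the part of this in the gap was not tested. These are matches of letters and not measured binding sites.

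Few imprinted genes were present at a level that allowed comparison. Of the 47 members, 13 reached 10 CPM in at least 1 sample, which is 7 of 27 paternally and 6 of 20 maternally expressed members, 20 had counts but stayed below that, and 14 had none in any library. A count of 0 over all 81016390 counts allows a level of up to 0.037 CPM, for counting error only. The 14 were H19, Dlk1, Rtl1, Mirg, Sfmbt2, Slc38a4, Smoc1, Peg12, Ndn, Magel2, Sgce, Calcr, Nap1l5 and Tspan32. Among them is H19, the maternally expressed RNA paired with Igf2, and Igf2 itself, the fetal growth factor, had 3 counts in 1 MO control library and none elsewhere. Of all features, 16.2% reached 10 CPM in a sample and 63.6% were at 0 throughout. The 13 members held 90.2% to 96.6% of the summed level of the set in each library.

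**Figure D1:**
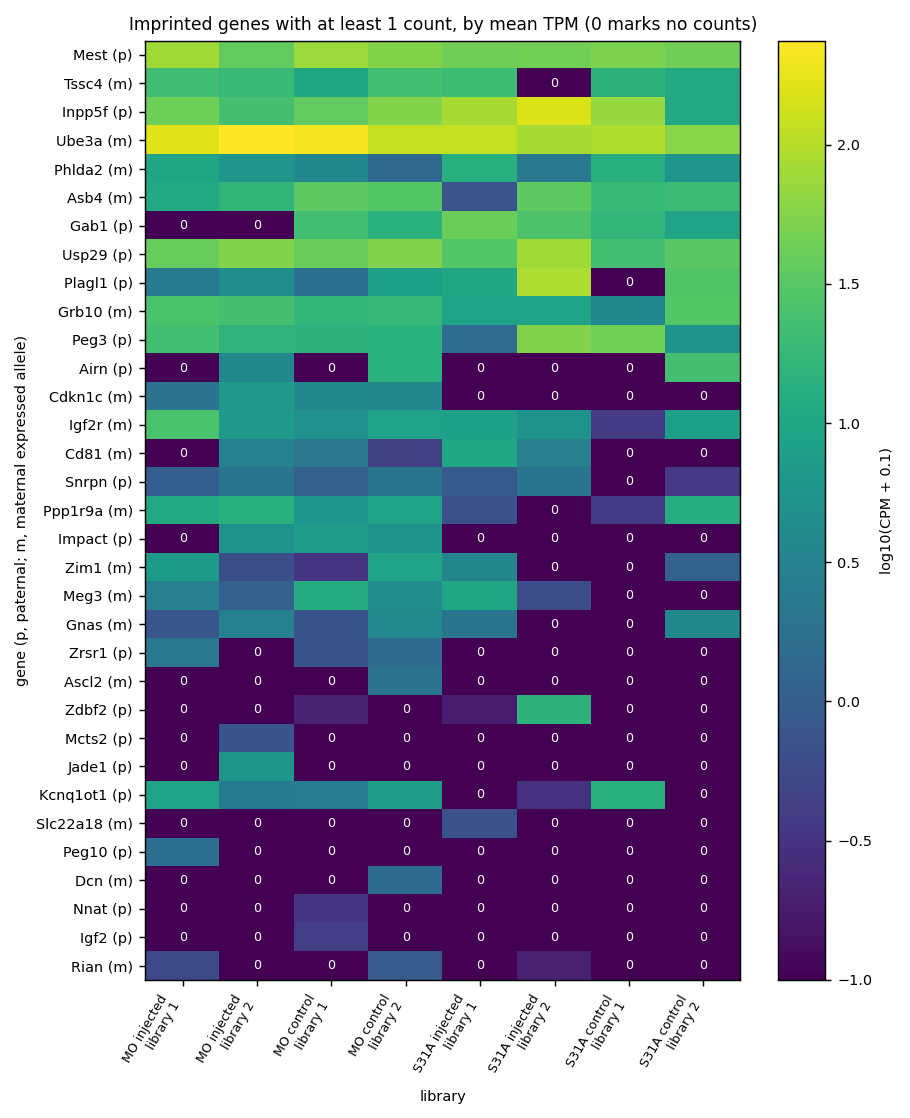
Level of each imprinted gene with at least 1 count (rows, by mean TPM) in the 8 libraries (columns), coloured by log10(CPM + 0.1), with 0 written where there were no counts. Mest and Ube3a were present in every library, Gab1 was at 0 in both MO injected libraries, and most of the lowest rows hold counts in 1 library.

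Per length, Mest, which encodes a hydrolase-like protein of growing embryos, was highest, with a mean over the 4 samples of 34.2 TPM (counts per base of exon, as a share of the library). Next came Tssc4, an assembly factor of the splicing machinery, at 20.1 TPM, Inpp5f, a phosphoinositide phosphatase, at 16.5 TPM, and the ubiquitin ligase gene Ube3a at 16.2 TPM. Phlda2, which restrains growth of the placenta, stood at 15.1 TPM, Asb4, an adaptor of ubiquitin ligases, at 12.8 TPM, Gab1 at 7.71 TPM and Usp29, a deubiquitinase gene, at 5.69 TPM. The library ranges of neighbours in this order overlapped, from Mest to Usp29, so the order is loose. Kcnq1ot1, the long RNA that silences its neighbours, had up to 13.9 CPM in a library but is 93092 bases long, which gave 0.119 TPM.

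The MO comparison asks whether imprinted RNAs differed where H3.3 RNA was low. Of 11 members at 10 CPM or more in either sample, 1 was at least 2-fold higher in MO injected zygotes, against 11.3% of the 8110 genes measured, and 2 were at least 2-fold lower, against 12.5%. The median log2 ratio of the 11 was 0.22, beside 0.03 for all measured genes. These shares and medians describe 2 samples without replicates. The members at least 2-fold lower were Gab1 and Asb4, and Igf2r was the higher one.

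Gab1 encodes a docking protein that carries signals from growth factor receptors, on chromosome 8 from 80764438 to 80880519 in mm10. It had 0 counts in both MO injected libraries, against 22.6 and 14 CPM in MO control libraries. It stood at 40.9 and 26.5 CPM in S31A injected libraries and at 16.3 and 9.23 CPM in S31A control libraries. It was thus absent from the counts of a single sample and present in both libraries of the other 3. Against a floor of 3 counts over the summed MO injected sample, Gab1 was at least 137-fold lower in MO injected zygotes. Of 22 members with counts in both MO control libraries, Gab1 alone had 0 in both MO injected libraries, while 6.39% of all such features did. In the reverse direction 0 of 18 members did, against 1.81% of all such features. Fewer features were detected in MO injected libraries (13159 and 13359) than in MO control libraries (15156 and 14895), at greater summed depth. The part of this in the Gab1 difference was not tested. With S31A, Gab1 was higher in the injected zygotes, with a log2 ratio of 1.45 (95% counting interval 1.26 to 1.66), and both injected libraries lay above both control libraries. Exons of Gab1 share 266 bases with the opposite-strand feature Gm31105, and the strand setting of the counting was not given.

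The other members of the H3K27me3 group gave little to set beside it. Jade1, a subunit of histone acetyltransferase complexes, had counts in MO injected library 2 alone, at 6 CPM. Sfmbt2, Slc38a4 and Smoc1 were at 0 in all.

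Asb4 lies on chromosome 6 from 5383386 to 5433022, in the Peg10 and Sgce cluster. It stood at 11.3 and 15.8 CPM in MO injected libraries, against 34.4 and 30.7 CPM in MO control libraries, with no overlap. Its log2 ratio was -1.27 (interval -1.49 to -1.06). In the S31A experiment Asb4 split between the injected libraries, at 0.682 and 34 CPM, while S31A control libraries had 18.5 and 20.5 CPM. Its S31A log2 ratio of -0.33 was 0.75 without S31A injected library 1 and -4.65 without library 2. Ppp1r9a, a protein phosphatase 1 partner in the same cluster, was at 11 and 13.8 CPM in MO injected and at 5.87 and 8.88 CPM in MO control libraries, a log2 ratio of 0.82. The neighbours Sgce and Calcr had no counts, and Peg10 had counts in 1 MO injected library, at 1.61 CPM.

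Igf2r, the receptor that clears the growth factor IGF2, lies on chromosome 17 from 12682406 to 12769664. It was at 25.4 and 6.33 CPM in MO injected libraries, against 5 and 8.55 CPM in MO control libraries. The libraries overlapped and the log2 ratio of 1.49 (interval 1.18 to 1.84) came from MO injected library 1, without which it was -0.05. In S31A injected libraries it was at 8.53 and 5.14 CPM, against 0.28 and 7.82 CPM in S31A control libraries. Airn, the RNA transcribed across the Igf2r promoter that silences Igf2r on the paternal chromosome, was in 3 libraries only. It stood at 3.60 CPM in MO injected library 2, 14.1 CPM in MO control library 2 and 23.9 CPM in S31A control library 2.

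Grb10, an adaptor that dampens insulin signalling, was at 26.1 and 23.8 CPM in MO injected libraries, against 17 and 17.8 CPM in MO control libraries, a log2 ratio of 0.59 (interval 0.38 to 0.81) without overlap. Peg3, a zinc finger gene of the paternal allele, was at 23.4 and 15.3 CPM in MO injected and at 15 and 14 CPM in MO control libraries, a log2 ratio of 0.51. Grb10, Peg3 and Ppp1r9a were the 3 members with both MO injected libraries above both controls, against 19.2% of all measured genes. The 2 with both below were Gab1 and Asb4, against 21.3%. Both were also at least 2-fold lower, which holds for 10.4% of all measured genes, and no member was at least 2-fold higher without overlap, against 7.29%.

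The remaining members had log2 ratios under 0.5 in size with MO. Mest was at 78.7 and 36.9 CPM in MO injected and at 73.6 and 55.9 CPM in MO control libraries (log2 ratio -0.06, interval -0.18 to 0.06). Usp29 was at 38.4 and 54.7 CPM in MO injected and at 40.3 and 54.6 CPM in MO control libraries (0.02, -0.12 to 0.17). Ube3a was at 161 and 236 CPM in MO injected and at 206 and 117 CPM in MO control libraries, a log2 ratio of 0.22. Inpp5f stood at 42 and 23.9 CPM in MO injected and at 36.2 and 56.6 CPM in MO control libraries, a log2 ratio of -0.31. Tssc4 was at 21.6 and 18.8 CPM in MO injected and at 9.67 and 23.3 CPM in MO control libraries, a log2 ratio of 0.49. The libraries of these 5 genes overlapped. Single libraries moved some of these ratios well past the counting intervals. Without MO injected library 1 the log2 ratio of Mest was -0.88 and that of Inpp5f -0.92. The Tssc4 ratio was -0.15 without MO control library 1 and 1.12 without MO control library 2.

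**Figure D2:**
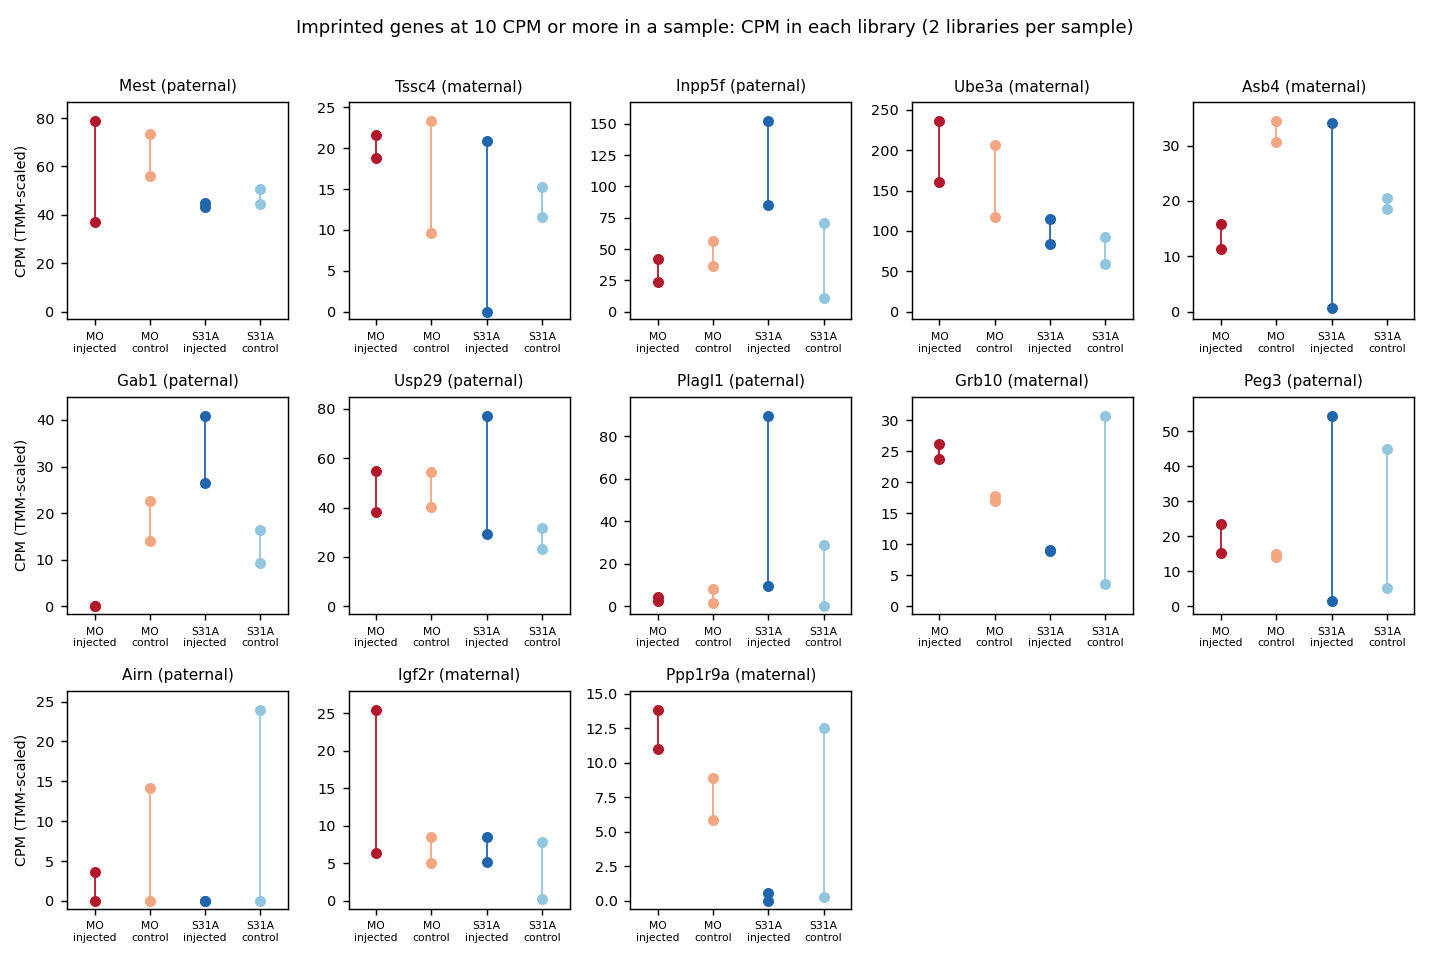
CPM (y axis, linear, each panel on its own scale from 0) of the 13 imprinted genes at 10 CPM or more in a sample, with each point 1 library and a line joining the 2 libraries of a sample. Gab1 is at 0 in both MO injected libraries, and Peg3, Plagl1, Asb4 and Tssc4 split widely between the S31A injected libraries.

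The S31A comparison asks the same of zygotes labelled as injected with the mutant H3.3. Of 11 measured members, 3 were at least 2-fold higher in S31A injected zygotes, against 14.1% of the 8191 genes measured, and 1 was at least 2-fold lower, against 16.1%. The median log2 ratio was 0.03, beside 0.02 for all measured genes. The 3 higher members were Plagl1, Inpp5f and Gab1, and the lower was Airn. All 4 are listed as paternally expressed, as are 7 of the 11 measured members. Which allele or which transcript of a gene gave these counts is not known. Both S31A injected libraries lay above both controls for Inpp5f and Gab1, against 19.8% of all measured genes, and below for none.

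Inpp5f lies on chromosome 7 from 128611328 to 128696425. It was at 85.2 and 152 CPM in S31A injected libraries, against 70.5 and 10.6 CPM in S31A control libraries, a log2 ratio of 1.54 (interval 1.43 to 1.66). The control libraries differed 6.69-fold from each other, and without S31A control library 2 the log2 ratio was 0.75, and without library 1 it was 3.47. Plagl1, a zinc finger factor that acts on other imprinted genes, was at 9.63 and 89.7 CPM in S31A injected libraries, against 0 and 28.7 CPM in S31A control libraries. These overlapped, and the log2 ratio of 1.61 was -0.64 without S31A injected library 2 and 8.64 without S31A control library 2. Airn had no counts in either S31A injected library, and its level in the controls, at 0 and 23.9 CPM, came from 1 library. It was at least 86.2-fold lower in the summed S31A injected sample, but without S31A control library 2 it had no counts on either side.

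Usp29 was at 29.5 and 77.2 CPM in S31A injected libraries, against 23.1 and 31.8 CPM in S31A control libraries, a log2 ratio of 0.88 (interval 0.74 to 1.03) with overlap. This was 0.07 without S31A injected library 2 and 1.43 without S31A injected library 1. Its neighbour Peg3 was at 1.53 and 54.4 CPM in S31A injected and at 44.9 and 5.28 CPM in S31A control libraries, so its log2 ratio of 0.03 joins libraries that differed 35.4-fold and 8.52-fold within a sample. The Peg3 ratio was -3.93 without S31A injected library 2 and 2.25 without S31A control library 1. In all 8 libraries Usp29 spanned 3.34-fold from lowest to highest, and Peg3 35.4-fold. Ube3a was at 115 and 84.5 CPM in S31A injected and at 92.7 and 59.4 CPM in S31A control libraries, a log2 ratio of 0.43. Mest was at 43.4 and 45.1 CPM in S31A injected and at 50.7 and 44.3 CPM in S31A control libraries, a log2 ratio of -0.10.

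Grb10 was at 8.87 and 9.10 CPM in S31A injected and at 3.64 and 30.7 CPM in S31A control libraries, a log2 ratio of -0.96. Leaving out S31A control library 2 gave 1.32, and leaving out S31A control library 1 gave -1.73. Tssc4 was at 20.9 and 0 CPM in S31A injected and at 15.2 and 11.6 CPM in S31A control libraries, and its log2 ratio of -0.19 was -6.88 without S31A injected library 1. Ppp1r9a was at 0.597 and 0 CPM in S31A injected and at 0.28 and 12.5 CPM in S31A control libraries. These 3 maternally expressed genes thus rested on single libraries.

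**Figure D3:**
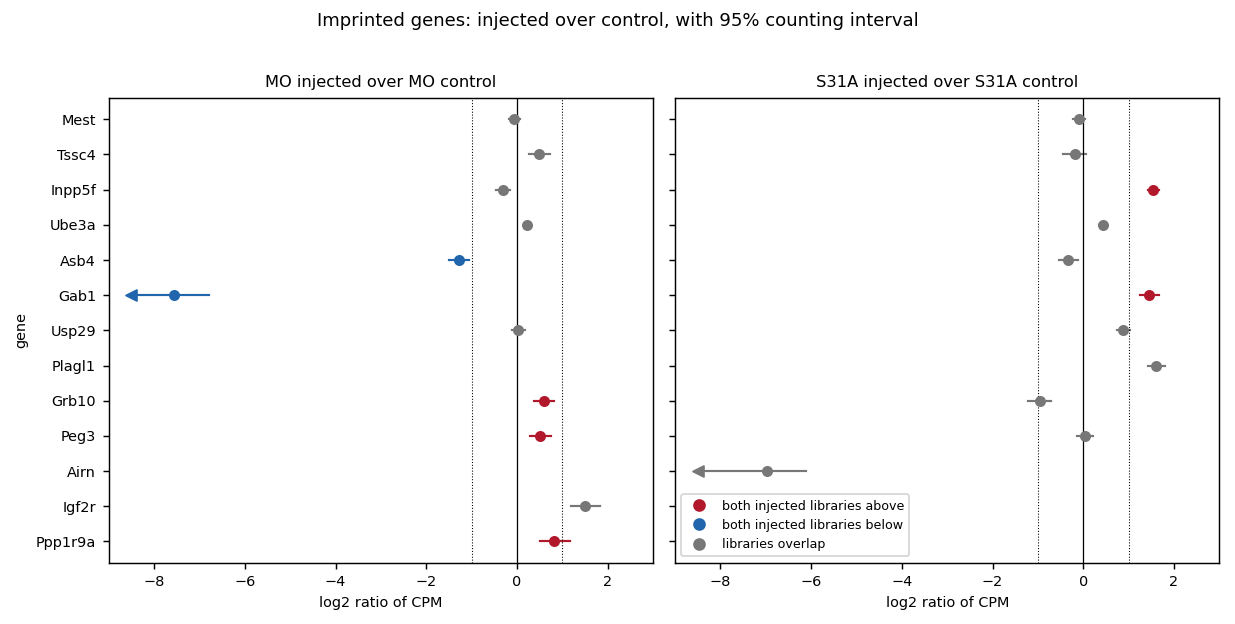
Log2 ratio of CPM, injected over control, with its 95% counting interval, for the imprinted genes measured in the MO (left) and S31A (right) experiments; dotted lines mark 2-fold, arrows an interval with no lower end, and colour whether the 2 injected libraries lay on 1 side of the 2 controls. Gab1 is below in the MO experiment and above, at 1.45, in the S31A experiment.

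Over the libraries, edgeR's quasi-likelihood test called 0 of the 11 members in the MO comparison after Benjamini-Hochberg adjustment, with 1, Gab1, at an unadjusted p under 0.05, against 5.29% of all measured genes. The adjusted p of Gab1 was 0.825 by edgeR. DESeq2 called 1, Gab1, with an adjusted p of 0.000185. In the S31A comparison edgeR and DESeq2 each called 0 of 11, and edgeR gave 0 with an unadjusted p under 0.05, against 5.98% of all measured genes. Such p-values compare libraries, whose spread within a sample can be technical, and not conditions. Of all genes measured, edgeR called 0% with MO and 0.0244% with S31A, and DESeq2 0.666% and 7.34%.

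Of the 9 members measured in both experiments, Gab1 was the only one at least 2-fold apart in both, and in opposite directions. Of all 7320 genes measured in both experiments, 3.16% were at least 2-fold apart in both and in opposite directions, and 1.57% were so without overlap in either. The difference between the experiments was not tested. By expressed allele, the median log2 ratio was -0.06 over 5 paternally and 0.54 over 6 maternally expressed members with MO, and 0.88 over 7 and -0.26 over 4 with S31A. These medians rest on few genes, and no direction is drawn from them.

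How far 2 libraries of 1 sample differ sets what these ratios can show. Among members that reached 10 CPM in either library, 2 of 10 were at least 2-fold apart between the MO injected libraries, where 40.1% of all such features were, and 3 of 11 between the MO control libraries, where 25.1% were. Between the S31A injected libraries 7 of 11 were, against 41.1% of all, and between the S31A control libraries 8 of 14, against 40.6%. Kcnq1ot1, Airn and Plagl1 passed 10 CPM in 1 S31A control library and were at 0 in the other. The largest split without a 0 was Asb4 in S31A injected zygotes, at 49.9-fold. Among members with counts in every library, Ube3a was the steadiest, within 1.76-fold in every sample, and Mest stayed within 2.13-fold. Gab1 was also within 1.76-fold in each sample where it had counts. Exons of Mest share 912 bases with the opposite-strand Copg2. Those of Ube3a share 1803 bases with Snhg14 and 2025 with Gm44560, both on the opposite strand, and the strand setting was not given.

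**Figure D4:**
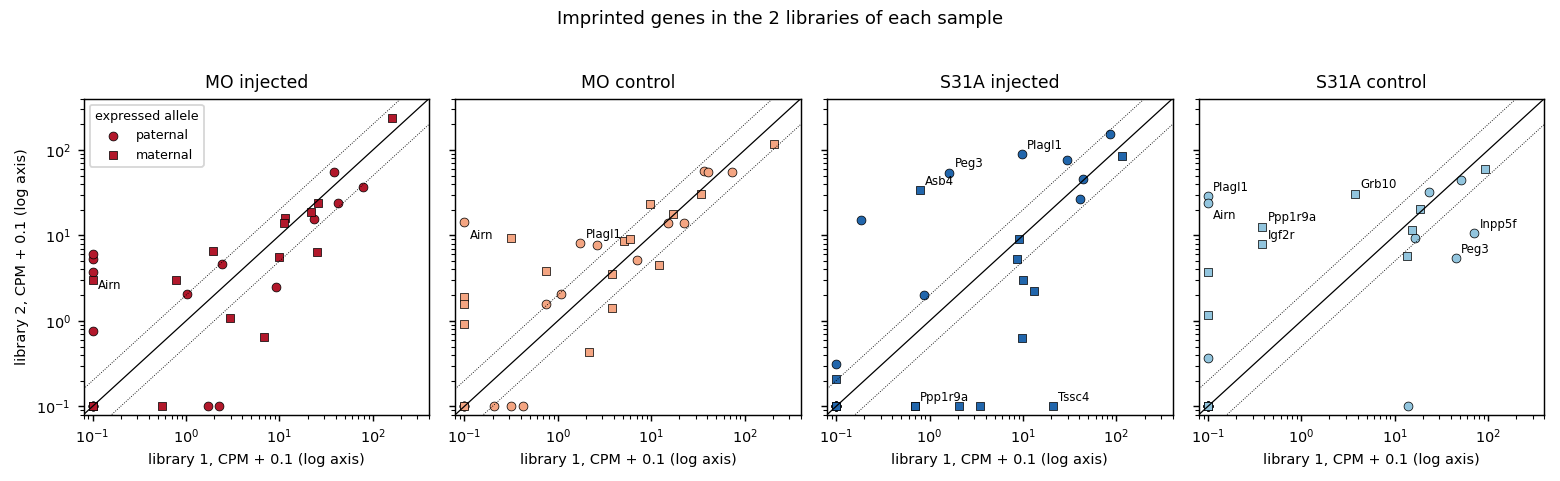
CPM + 0.1 of each imprinted gene in library 2 (y, log axis) against library 1 (x, log axis) of each sample, with circles for paternally and squares for maternally expressed genes, the diagonal solid and 2-fold dotted. Named points are the genes at 10 CPM or more in a sample that lie at least 4-fold off the diagonal, and 7 of 11 members at 10 CPM lie outside the dotted lines in the S31A injected sample.

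The controls of the 2 experiments also differed from each other. In S31A control against MO control zygotes, 2 of 11 members were at least 2-fold higher, against 13.6% of 8266 genes measured, and 1 was lower, against 16.2%. Ube3a, on chromosome 7 from 59228750 to 59311536, was the lower one, at 92.7 and 59.4 CPM in S31A control and at 206 and 117 CPM in MO control libraries (log2 ratio -1.12, interval -1.21 to -1.03). Of all measured genes 14.5% were likewise at least 2-fold lower without overlap. Without MO control library 1 the Ube3a ratio was -0.59. Asb4, Usp29 and Mest were lower without overlap as well, with log2 ratios of -0.70, -0.68 and -0.43, so 4 of 11 members had both S31A control libraries below, against 25.2% of all measured genes, and none had both above, against 21.2%. edgeR over libraries called 0 of the 11 and 0% of all genes, with 9.9% of all at an unadjusted p under 0.05, and DESeq2 called 0 of the 11 and 4.32% of all. Airn and Plagl1 were the higher ones, with log2 ratios of 1.17 and 1.85, and both turned negative without S31A control library 2, at -5.60 and -5.18. Between 11372 and 11768 features were detected in S31A control and between 14895 and 15156 in MO control libraries, so fewer features were found in the S31A control at greater depth. The part of this in the differences was not tested.

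Several members below 10 CPM had no counts in the S31A libraries. Cdkn1c, an inhibitor of cyclin-dependent kinases, was at 1.84 and 6.44 CPM in MO injected and at 3.69 and 3.45 CPM in MO control libraries, and had no counts in any S31A library. Impact, a regulator of the stress kinase GCN2, and Zrsr1, a splicing factor gene, also had no S31A counts. Impact was at 0 and 5.24 CPM in MO injected and at 6.96 and 5.10 CPM in MO control libraries. Of 22 members with counts in both MO control libraries, 5 had 0 in both S31A control libraries, namely Cdkn1c, Impact, Zrsr1, Meg3 and Cd81, where 11.1% of all such features did. Of 15 members with counts in both S31A injected libraries, 3 had 0 in both S31A control libraries, Zdbf2, Meg3 and Cd81, where 3.45% of all such features did. Of 12 members with counts in both S31A control libraries, 0 were absent from the S31A injected sample, against 3.5% of all such features. The same 12 gave 0 absent from the MO control sample, against 0.721%. Cd81 was at 9.98 and 2.89 CPM in S31A injected libraries, and Zdbf2 at 0.0853 and 14.9 CPM, from 1 and 139 counts.

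Meg3, the maternally expressed long RNA of the Dlk1 cluster, was at 2.83 and 0.982 CPM in MO injected and at 12.1 and 4.44 CPM in MO control libraries. It stood at 9.72 and 0.535 CPM in S31A injected zygotes and at 0 in both S31A control libraries. Kcnq1ot1 was at 9.19 and 2.40 CPM in MO injected and at 2.50 and 7.56 CPM in MO control libraries, then at 0 and 0.214 CPM in S31A injected and at 13.9 and 0 CPM in S31A control libraries. Among the genes it silences, Phlda2 was found in all 8 libraries, at 9.80 and 5.57 CPM in MO injected, 3.69 and 1.32 CPM in MO control, 13 and 2.14 CPM in S31A injected and 13.5 and 5.63 CPM in S31A control libraries. Both MO injected libraries were above both MO controls for Phlda2, but no sample reached 10 CPM. Snrpn, a core protein gene of the splicing machinery, stayed under 2 CPM in every library.

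A list of imprint regulators, not only those that read or keep imprints, was looked at in the same zygotes. Of 28 genes listed as imprint regulators, 22 were measured. With MO, 0 were at least 2-fold higher, against 11.3% of all measured genes, and 0 lower, against 12.5%. The median log2 ratio was 0.03. Both MO injected libraries lay above both controls for 1 of the 22 and below for 3, against 19.2% and 21.3% of all measured genes. With S31A, 2 were higher, Zfp445 and Arid4b, against 14.1%, and 1 lower, Trim28, against 16.1%, and the median was 0.23. The libraries overlapped for Arid4b. Both S31A injected libraries lay above both controls for 7 of the 22 and below for 2, against 19.8% of all measured genes each way. Kdm1b, another of the 22, was at 380 and 490 CPM in S31A injected and at 188 and 246 CPM in S31A control libraries. Its log2 ratio was 0.98, with an adjusted p over libraries of 0.00735 by DESeq2 and 0.802 by edgeR. DESeq2 called 7.34% of all measured genes there. Dppa3, which shields maternal methylation in the zygote, was at 947 and 884 CPM in MO injected, 1033 and 1017 CPM in MO control, 1009 and 1045 CPM in S31A injected and 985 and 770 CPM in S31A control libraries. Zfp57 stood at 155 and 890 CPM in MO injected and at 503 and 498 CPM in MO control libraries, so its MO injected libraries lay on both sides of the controls. It was at 109 and 92.9 CPM in S31A injected and at 143 and 150 CPM in S31A control libraries.

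Zfp445, a zinc finger factor that acts beside ZFP57, was at 173 and 96.6 CPM in S31A injected and at 34.7 and 73.9 CPM in S31A control libraries (log2 ratio 1.34, interval 1.25 to 1.44). Trim28, the corepressor both recruit, was at 26.5 and 10.9 CPM in S31A injected and at 32.2 and 60 CPM in S31A control libraries (-1.24, -1.41 to -1.08). Neither overlapped, where 9.19% of all measured genes stood 2-fold or more above the controls without overlap and 11.4% below. With MO, Zfp445 was at 34.2 and 35.9 CPM in injected and at 81.6 and 27.6 CPM in control libraries, and Trim28 at 66.5 and 12.8 CPM in injected and at 35 and 12.8 CPM in control libraries. Dnmt1 encodes the maintenance DNA methyltransferase. With MO it was at 163 and 202 CPM in injected and at 313 and 391 CPM in control libraries (log2 ratio -0.89). With S31A it was at 560 and 536 CPM in injected and at 401 and 405 CPM in control libraries (0.45). The Dnmt1 libraries overlapped in neither experiment.

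Between the controls, 0 of the 22 regulators were at least 2-fold higher in S31A control zygotes, against 13.6% of all measured genes, and 4 were lower, against 16.2%. The 4 were Zfp57, Dnmt3a, Arid4a and Arid4b, and none of them overlapped. Of all measured genes, 14.5% were likewise at least 2-fold lower without overlap. Zfp57, whose levels are given above, had a log2 ratio of -1.72 (interval -1.78 to -1.66). Its adjusted p over libraries was 1.2e-07 by DESeq2 and 0.287 by edgeR, where DESeq2 called 4.32% of all measured genes and edgeR 0%. DESeq2 over libraries also called Dnmt3a (adjusted p 0.0217) and Arid4b (0.00818), for which edgeR gave 0.308 and 0.361. Dnmt3a, a DNA methyltransferase that sets imprints in the egg, was at 73.3 and 65.1 CPM in S31A control and at 161 and 207 CPM in MO control libraries (-1.32, -1.42 to -1.23). Arid4a, a chromatin factor, was at 52 and 8.53 CPM in S31A control and at 105 and 110 CPM in MO control libraries, a log2 ratio of -1.80. Its relative Arid4b was at 0 and 1.49 CPM in S31A control and at 31 and 42.3 CPM in MO control libraries, a log2 ratio of -5.30.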

How the data were processed

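The submitters' processing notes name Bowtie2 and featureCounts, with FastQC, DESeq2 and the build mm10. The annotation, the strand setting and the handling of multiply matching reads are not given in the sources used here. Per the labels, cDNA was amplified by PCR. The authors deposited whole-number counts for each gene, with gene lengths in bases per the file headers, and 46 of 47 members had the same coordinates in GENCODE M21. Bowtie2 does not split reads over introns, so reads over exon junctions can be lost.

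The 2 libraries of a sample were summed and scaled with TMM factors (edgeR 4.0.16, R 4.3.3). Log2 ratios used a prior count of 2 over genes at 10 CPM or more in either sample, and 2-fold was counted. Groups of 1 sample allow no test between them. Intervals (95%, exact, Clopper-Pearson) take the counts of both samples and cover counting error only, as PCR copies cannot be told from molecules. Where a sample had 0 counts, the fold given is a bound that puts 3 counts in its place. edgeR's quasi-likelihood test and DESeq2 1.42.0 were run over libraries, and the steps were tested on simulated data. TPM used the deposited lengths.

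Members at 10 CPM in a sample are named with their CPM in all 8 libraries where they are compared. Of the regulators and neighbours, genes at least 2-fold apart without overlap are named, with Dppa3, Zfp57, Zfp445, Trim28, Dnmt1 and Mcts1. Kdm1b was added after its values were seen. Other members below 10 CPM were named after their values were seen. Members and lists were chosen with earlier results of these data known. Exons of 23 members overlap another feature.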

Additional observations from a re-analysis of the deposited data

Results flagged for a closer look

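Gab1 had opposite differences in the 2 experiments. Its log2 ratio was -7.56 for MO injected over MO control zygotes, where the injected count was 0 and the fitted value depends on the prior count, and 1.45 for S31A injected over S31A control zygotes. The libraries of injected and control zygotes did not overlap in either experiment. With 1 sample per group the difference between the experiments was not tested, and the experiments have separate controls. Without 1 library in turn the ratio ran from -7.68 to -6.94 with MO and from 1.02 to 1.92 with S31A.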

How the results depend on the processing

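With each library left out in turn, the members at least 2-fold higher with MO numbered 0 to 3, those lower 2 to 3, and the median log2 ratio was 0.01 to 0.21. With S31A these were 2 to 6, 1 to 4 and -0.15 to 0.89. For S31A control over MO control they were 0 to 3, 0 to 4 and -0.53 to -0.20. Log2 ratios turned for 4 values at least 2-fold apart, with ranges of -0.05 to 1.93 for Igf2r with MO, -0.64 to 8.64 for Plagl1 with S31A, and -5.60 to 6.86 for Airn and -5.18 to 3.15 for Plagl1 between controls. For Airn between controls the value without MO control library 1 was -0.16. Gab1 in both experiments and Asb4 with MO stayed at least 2-fold apart under every alternative run on single genes. For Gab1 with MO this was bound to hold, as both MO injected libraries had 0 counts. With no filter beyond 1 count, 5 members were higher and 9 lower with MO (median -0.02), 9 and 3 with S31A (0.57), and 13 were lower between controls (-0.70). At 1 CPM, 3 were higher and 5 lower with MO, 8 and 3 with S31A (0.43), and 7 were lower between controls (-0.49). At 50 CPM, 0 were higher and 0 lower with MO, 1 and 0 with S31A (0.88), and 0 were higher between controls (-0.78), since 2 to 3 members were left. Members without exon overlap gave 1 lower with MO (median 0.59), 0 higher with S31A (-0.64), and 1 higher and 0 lower between controls (0.44), as 4 to 5 were left. Scaling by total counts gave 2 lower with S31A, where Grb10 joined, and equal weight per library gave 1 higher between controls. DESeq2 over libraries called 1 member with MO. DESeq2 size factors and a prior count of 0.5 left these counts of higher and lower members as they were. Of 264 recomputed ratios of single members, 29 had the other sign, in 17 of 33 ratios. Ratios at least 2-fold apart gave 5 of these, all without 1 library, and ratios within 2-fold gave 24, of which 20 came without 1 library. The other 4 were Usp29 with MO, at -0.09 by total counts and -0.03 with libraries weighted equally, Peg3 with S31A, at -0.07 by total counts, and Grb10 between controls, at -0.02 with libraries weighted equally. No paired analysis was possible because each group held 1 sample and nothing ties library numbers across groups. A floor of 3 counts stood at 0.136 to 0.19 CPM per sample, and lower levels cannot be told from 0.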

Other observations

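Genes beside the imprinted members were looked at as well, from a list of 21 neighbours, antisense partners and parent genes of which 19 were in the table. With MO, 12 of these were measured, and 2 were at least 2-fold higher and 1 lower, against 11.3% and 12.5% of all measured genes. With S31A, 2 of 12 were higher and 2 lower, against 14.1% and 16.1%.

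Osbpl5, a lipid transfer protein gene in the Kcnq1ot1 cluster, was at 4.98 and 27.4 CPM in MO injected and at 0 and 1.48 CPM in MO control libraries (log2 ratio 4.43, interval 3.7 to 5.79). It was at 15.7 and 27.2 CPM in S31A injected and at 8.22 and 0.615 CPM in S31A control libraries (2.25, 1.95 to 2.61), so it was higher without overlap in both experiments. Of all 7320 genes measured in both, 4.43% were at least 2-fold apart in both and in the same direction, with or without overlap. Kcnq1, a potassium channel gene whose exons share 121 bases with the opposite-strand Kcnq1ot1, was at 5.80 and 0.214 CPM in S31A injected and at 46.5 and 19.3 CPM in S31A control libraries (-3.25, -3.66 to -2.93). Without strand the 2 genes cannot be told apart there. Kcnq1 was also higher in S31A control than in MO control libraries, which had 8.04 and 7.07 CPM (2.12, 1.86 to 2.43).

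Gpr1, a receptor gene beside Zdbf2, was at 126 and 185 CPM in MO injected and at 328 and 364 CPM in MO control libraries (-1.13, -1.19 to -1.07), while Zdbf2 itself had 1 count over the 4 MO libraries. Herc3, which hosts the retrogene Nap1l5 in an intron, was at 62.3 and 55.1 CPM in S31A injected and at 15.5 and 30.5 CPM in S31A control libraries (1.35, 1.2 to 1.5), and Nap1l5 was at 0. Commd1, the host of Zrsr1, was at 3.24 and 9.31 CPM in S31A injected and at 10.7 and 18.6 CPM in S31A control libraries (-1.29, -1.62 to -1). Mcts1, the parent gene of the retrogene Mcts2, stayed at or below 7.57 CPM in every library, and Mcts2 had counts in 1 MO injected library, at 0.655 CPM.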
